A study of Mus musculus with 6 samples.

Results

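The level of 10 genes of the TGF-beta and BMP systems was followed in mouse hearts with and without the melanocortin 4 receptor gene Mc4r. The genes were Tgfb1, Tgfb2, Tgfb3, Bmp2, Bmp4 and Bmp6 among the ligands, Tgfbr1, Tgfbr2 and Bmpr2 among the receptors, and Ctgf, a matrix-associated protein whose gene is a widely used readout of TGF-beta signalling. They were taken by gene name from a table of 54532 genes, and all 10 passed the minimum level for testing, a mean of at least 0.1 FPKM, as did 18035 genes in all. FPKM, fragments scaled to gene length and library size, is a level per gene length, so the genes can be compared with each other.

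Mc4r encodes a receptor of the hypothalamus that restrains food intake. The study compared mice homozygous for an Mc4r knockout (Mc4r KO, n = 3) with wild-type littermates (WT, n = 3), both on the C57B/6/N background, on standard chow and 12 weeks of age, to ask how loss of Mc4r affects the heart at an early stage. The knockout came from crosses of heterozygous parents and is given as no heart-specific allele, and the exact allele is not given in the sources used here. The labels give heart as the tissue, the sample titles call it muscle, and the study describes left ventricular tissue. Each library came from 1 mouse and was prepared from poly(A) RNA.

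TGF-beta ligands are secreted in a latent form, bound to matrix by latency proteins, and once released they bring the type II receptor Tgfbr2 together with the type I receptor Tgfbr1, which phosphorylates Smad2 and Smad3. BMP ligands act through Bmpr2 and BMP type I receptors on Smad1, Smad5 and Smad9. In the heart the TGF-beta arm is best known for fibroblast activation and matrix production, and the BMP arm for valve and chamber development. Bmp6 is made by endothelial cells, in the liver among others, where it is the principal BMP controlling hepcidin.

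No difference between the genotypes in the 10 genes passed the call, an adjusted p under 0.05 with an absolute log2 fold change above 0.75. Bmp6 came nearest, at 15.7 ± 1.24 FPKM in Mc4r KO hearts and 9.05 ± 1.35 FPKM in WT hearts (SD, n = 3 each), with a limma adjusted p of 0.0529, and it passed the call under 6 of the 22 alternative settings. Tgfb2, Tgfbr1, Bmpr2 and Ctgf were lower, and Bmp2 and Bmp6 higher, in each KO heart than in each WT heart. Of all 18035 genes tested, 26.4% were likewise without overlap in 1 direction or the other. Tgfb1, Tgfb3, Tgfbr2 and Bmp4 overlapped between the genotypes.

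The upstream regions of Tgfb2, Tgfbr1 and Bmp6 are shown because these ligands and this receptor separated the genotypes, 1 of them upward and the others downward. They are the bases just before the RefSeq start site, on the strand of the gene and in build GRCm38.p6. Capitals mark CAGAC, the Smad box, GGCGCC, a GC-rich element bound by BMP Smads, and ACGTG, the core of the hypoxia response element, each searched on both strands. In the palindrome CACGTG the ACGTG matches of both strands overlap.
Tgfb2, chr1:186705990-186706239, minus strand: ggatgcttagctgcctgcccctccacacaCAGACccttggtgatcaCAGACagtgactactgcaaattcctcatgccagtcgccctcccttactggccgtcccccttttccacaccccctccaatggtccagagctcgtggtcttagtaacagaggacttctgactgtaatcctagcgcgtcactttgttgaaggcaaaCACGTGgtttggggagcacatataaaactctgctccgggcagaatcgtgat
Tgfbr1, chr4:47352972-47353221, plus strand: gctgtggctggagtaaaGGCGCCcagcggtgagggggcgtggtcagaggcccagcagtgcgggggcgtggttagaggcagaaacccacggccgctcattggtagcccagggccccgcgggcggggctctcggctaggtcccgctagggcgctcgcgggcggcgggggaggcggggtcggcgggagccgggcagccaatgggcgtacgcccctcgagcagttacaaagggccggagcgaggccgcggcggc
Bmp6, chr13:38345585-38345614, plus strand: agcgCACGTGtgCAGACtgcgagtgaccgt
The Tgfb2 region held CAGAC at 2 places and CACGTG once. The Tgfbr1 region shown, that of the upstream of its 2 start sites, held GGCGCC once, and the other (chr4:47385966-47386215) held CAGAC once and no GGCGCC. For Bmp6 the whole 250 bases before the RefSeq start lie inside an exon of the gene model used for counting, so that a stretch of 30 bases is shown, with its CAGAC match 119 bases before the start and its overlapping ACGTG matches 126 and 127 bases before it. Such letters are common: CAGAC occurred in 42.2% of all 32851 RefSeq promoter regions of this length, GGCGCC in 9.59% and ACGTG in 16.6%. Regions were found for 7 of the 10 genes (8 regions, since Tgfbr1 has 2 start sites), of which 4 held CAGAC, 2 held GGCGCC and 3 held ACGTG. Tgfb3, Bmp2 and Ctgf had no entry. Bmpr2 also separated the genotypes, downward, and its region, which held GGCGCC once, is not shown. As for Bmp6, all 250 bases of the Bmpr2 region lie inside an exon of the gene model.

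The libraries held between 14691076 and 16047003 reads on genes. Mc4r itself was at 0 reads in all 3 KO libraries and in WT replicates 1 and 2, and at 2 reads in WT replicate 3, while 3 reads would have given between 0.0639 and 0.0771 FPKM. The heart level of the targeted gene was therefore too low to check the genotype labels. WT replicate 3 stood apart in atrial markers. The summed level of Myl7, Myl4, Sln, Nppa and Bmp10 was 797.5 FPKM in that library, 28.7 and 95.2 FPKM in the other WT libraries and 6.29 to 136.5 FPKM in the KO libraries. Its mesothelial marker sum was 23.5 FPKM, against 4.396 to 7.14 FPKM elsewhere. Cardiomyocyte markers (Myh6, Tnnt2, Actn2, Tnni3, Ryr2) summed to between 4927 and 6038 FPKM in every library. Of the skeletal muscle markers, the myosin gene Myh4 was at 0 in all 6 libraries and Myh1 and Myh2 at no more than 3 reads. Acta1 and Ckm, which heart muscle also expresses, brought the sum of the 5 markers to between 355.5 and 593.2 FPKM in WT and between 573.7 and 958.4 FPKM in KO libraries, with Acta1 at 49.7 to 238.0 FPKM in WT and 233.3 to 554.7 FPKM in KO libraries. Mitochondrial genes took 59.3%, 57.4% and 47.1% of the summed FPKM in WT replicates 1 to 3 and 43.0% to 46.6% in KO libraries. WT replicate 3 was thus the WT library nearest the KO libraries in that share, and it was also nearest in the GC percentage of the reads. Leaving it out compares genotypes whose libraries lie further apart in both. For the 10 genes, and for list genes whose call it changed, differences are given with and without WT replicate 3 where that library changed a direction or a call.

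The genes covered a wide range of levels. In WT hearts Ctgf was highest, at 27.2 ± 2.53 FPKM (SD, n = 3), above 92.1% of the genes tested in the mean over all libraries. Tgfbr2, Bmp6, Bmpr2, Tgfb1, Tgfb3 and Tgfbr1 followed between 9.31 and 4.32 FPKM, and each of these up to Tgfb3 overlapped with the next in the order. Tgfbr1 did not overlap with Bmp4. Bmp4 and Tgfb2 came next, at 2.85 and 2.21 FPKM, and overlapped with each other. Bmp2 was lowest, at 0.285 ± 0.103 FPKM. In KO hearts Bmp6 stood second, its range overlapping that of Ctgf and lying above that of Tgfbr2, and Bmp4 came before Tgfbr1, with overlapping ranges.

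**Figure D1:**
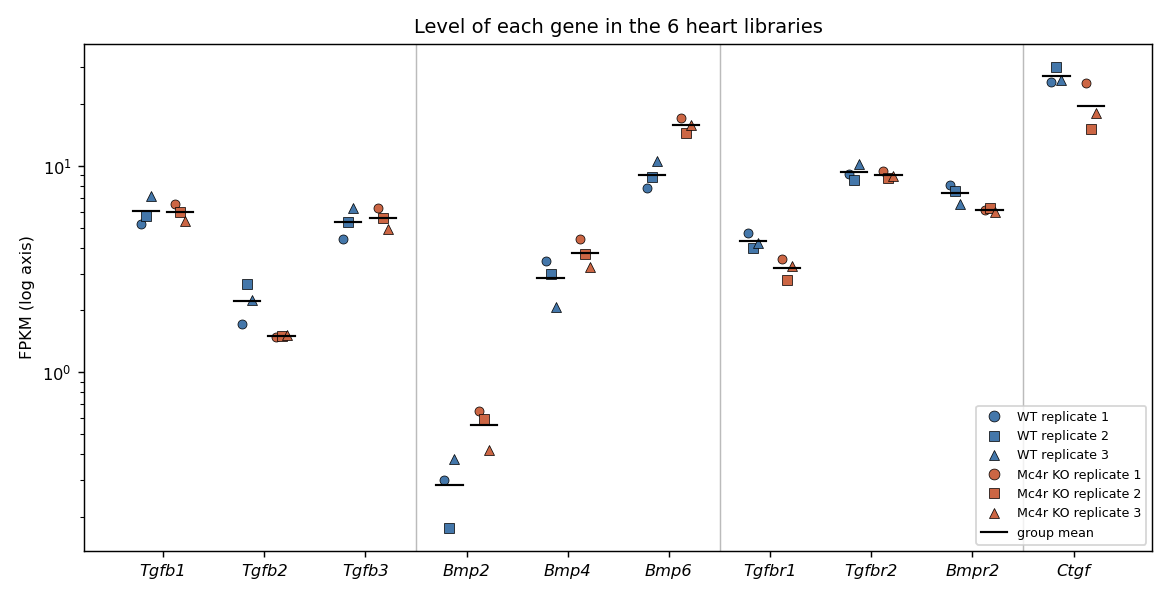
FPKM on a log axis of the 10 genes in each of the 6 libraries, blue for WT and orange for Mc4r KO, with a bar at the group mean; vertical lines separate TGF-beta ligands, BMP ligands, receptors and Ctgf. The KO values of Bmp6 lie between 14.5 and 16.97 FPKM, all above the WT values. The KO values of Tgfb2 lie within 1.48 to 1.52 FPKM, closer together than counting error alone would give.

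Tgfb1, the isoform that dominates in immune cells and platelets and the one most studied in fibrosis, measured 5.23, 5.69 and 7.13 FPKM in the WT libraries and 6.52, 5.94 and 5.41 FPKM in the KO libraries. The KO values lay inside the WT range. The log2 fold change, KO against WT on log2(FPKM + 0.1), was -0.01 ± 0.14 (SE, limma adjusted p = 0.990), and the 95% interval of the fold ran from 0.793 to 1.25. Without WT replicate 3, its highest value, the log2 fold change was 0.12 (limma adjusted p = 0.539).

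Tgfb2, the isoform of cardiac cushion and valve development, was at 1.71, 2.68 and 2.24 FPKM in WT hearts. The KO hearts gave 1.48, 1.5 and 1.52 FPKM, all below the lowest WT value and within a much narrower span. The mean was 0.678 times that of WT, with a log2 fold change of -0.51 ± 0.18 (SE) and a limma adjusted p of 0.170. The spread within groups was 15.5% of the mean, and 7.78% would come from counting at 132 to 223 reads. The SD was 0.484 FPKM in WT and 0.0190 FPKM in KO hearts. The KO span, at 132 to 141 reads, was narrower than counting error alone would give, so no weight rests on it.

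Tgfb3, an isoform made by mesenchymal cells, was measured at 4.42, 5.35 and 6.23 FPKM in WT and at 6.25, 5.60 and 4.92 FPKM in KO libraries, and the groups overlapped. The log2 fold change was 0.07 ± 0.15 (SE, limma adjusted p = 0.824), with a fold between 0.820 and 1.35. When libraries were scaled to their non-mitochondrial FPKM, the median of all genes moved from -0.01 to -0.19 and Tgfb3 with it to -0.12, so that it stayed above that median. In the gene model 12.4% of the exonic bases of Tgfb3 overlap Gm37804 and Gm48008 on the opposite strand, both at no more than 0.592 FPKM in any library.

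The makeup of the TGF-beta ligands was compared within each library. Tgfb2 made up 15.1%, 19.5% and 14.4% of the summed FPKM of the 3 ligands in WT hearts and 10.4%, 11.5% and 12.8% in KO hearts, without overlap. Tgfb3 made up 38.9%, 39.0% and 39.9% in WT and 43.9%, 43.0% and 41.5% in KO hearts, again without overlap. Without WT replicate 2 the Tgfb2 difference was -3.16 percentage points, in place of -4.76. For each share, with all libraries, the exact permutation test of 3 libraries against 3 (two-sided) gave p = 0.1, the smallest that design allows, and 0.267 after Benjamini-Hochberg adjustment over the 8 shares and ratios compared. The Tgfb1 share was 44.4% ± 2.54 in WT and 45.7% ± 0.111 in KO hearts (SD, n = 3 each, exact permutation p = 0.9). The shares of 1 system sum to 100, so a lower share of 1 ligand raises the others, and a share does not depend on scaling between libraries.

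Among Bmp2, Bmp4 and Bmp6, Bmp6 was the most abundant in each of the 6 hearts. WT replicates 1 to 3 gave 7.84, 8.80 and 10.5 FPKM and KO replicates 1 to 3 gave 16.97, 14.5 and 15.7 FPKM. The highest WT heart stood below the lowest KO heart. The log2 fold change was 0.80 ± 0.13 (SE), a fold of 1.41 to 2.14 at 95%, with an unadjusted limma p of 0.00036 and an adjusted p of 0.0529 over the 18035 genes. At 431 to 1027 reads counting error was 3.66% of the mean, against 12.0% between libraries. Without WT replicate 3 the log2 fold change was 0.91 (limma adjusted p = 0.00978). Of its exonic bases 5.74% overlap Txndc5, a protein disulphide isomerase gene on the opposite strand, which was at 10.7 ± 1.37 FPKM in WT and 10.5 ± 0.700 FPKM in KO hearts (SD, n = 3 each).

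Bmp2, an early inducer of cardiac fate and of calcification, was at 0.299, 0.176 and 0.380 FPKM in WT and 0.652, 0.592 and 0.421 FPKM in KO hearts. The groups did not overlap, and the KO mean was 1.95 times that of WT. These values rest on 9 to 36 reads a library, where counting alone gives 20.8% of the mean. The lowest KO heart, replicate 3, had 24 reads and the highest WT heart, replicate 3, had 23, so the lack of overlap is within counting error. On the log2 scale the difference was 0.79 ± 0.31 (SE, limma adjusted p = 0.211).

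Bmp4, a ligand of mesoderm and of vessel walls, measured 3.47, 3.00 and 2.06 FPKM in WT and 4.41, 3.72 and 3.24 FPKM in KO hearts. The lowest KO value lay below the highest WT value. It gave a log2 fold change of 0.42 ± 0.21 (SE, limma adjusted p = 0.303), and it was 0.21 without WT replicate 3 (limma adjusted p = 0.429), whose level was the lowest. The part of the atrial tissue markers in that low value was not tested.

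Bmp6 made up 74.0% ± 6.82 of the summed FPKM of the 3 BMP ligands in WT and 78.4% ± 2.34 in KO hearts, Bmp4 23.6% ± 7.09 and 18.9% ± 1.83, and Bmp2 2.33% ± 0.763 and 2.76% ± 0.520 (SD, n = 3 each). All 3 shares overlapped between the genotypes (exact permutation p = 0.5, 0.4 and 0.5). The overlap rested on WT replicate 3 for Bmp6 and Bmp4. The difference, KO minus WT, was 4.34 percentage points for Bmp6 and -4.78 for Bmp4 with all libraries. Without that library it was 7.89 and -8.63, with the genotypes apart (exact permutation p = 0.2 for both, and no lower p is possible with 2 libraries against 3), and without WT replicate 1 it was 1.09 and -1.65. The Bmp6 share was highest in replicate 3 of either genotype, at 81.1% in both.

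**Figure D2:**
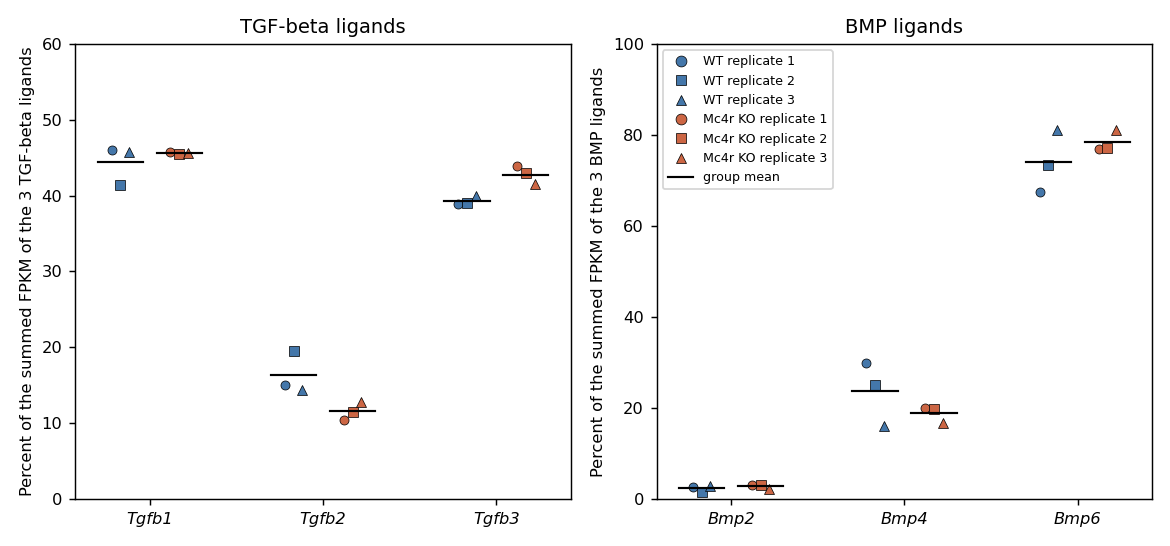
Percent of each ligand in the summed FPKM of the 3 TGF-beta ligands (left) and the 3 BMP ligands (right), 1 point a library, with a bar at the group mean. The Tgfb2 share is lower and the Tgfb3 share higher in each Mc4r KO library than in each WT library, while the BMP shares overlap.

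Tgfbr1, the signalling type I receptor for TGF-beta, was at 4.74, 4.01 and 4.22 FPKM in WT hearts and 3.54, 2.80 and 3.27 FPKM in KO hearts. Every KO value was below every WT value. The log2 fold change was -0.42 ± 0.13 (SE, limma adjusted p = 0.134), with a fold between 0.605 and 0.918. Tgfbr2, the ligand-binding type II receptor, was at 9.17, 8.52 and 10.2 FPKM in WT and 9.47, 8.75 and 8.90 FPKM in KO hearts, the KO values lying inside the WT range. Its log2 fold change was -0.04 ± 0.10 (SE, limma adjusted p = 0.858), with a fold between 0.829 and 1.14, and without WT replicate 3 it was 0.03 (limma adjusted p = 0.847).

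The log2 ratio of Tgfbr2 to Tgfbr1 within a library was 0.95, 1.09 and 1.28 in WT and 1.42, 1.64 and 1.44 in KO hearts, without overlap. The difference was 0.40 (exact permutation p = 0.1, the smallest possible, adjusted 0.267). Bmpr2, the type II receptor for BMPs, was at 8.03, 7.52 and 6.50 FPKM in WT and 6.08, 6.23 and 6.003 FPKM in KO hearts. The KO hearts were lower in each case, with a log2 fold change of -0.26 ± 0.10 (SE, limma adjusted p = 0.223), and without WT replicate 3 it was -0.34 (limma adjusted p = 0.0549). The ratio of Bmpr2 to Tgfbr2 overlapped between genotypes, at a log2 of -0.34 ± 0.27 in WT and -0.57 ± 0.07 in KO hearts (SD, n = 3 each, exact permutation p = 0.4). WT replicate 3, at -0.65, made the overlap. The difference was -0.22 with all libraries, -0.38 without WT replicate 3 (exact permutation p = 0.2, the smallest possible) and -0.15 and -0.14 without WT replicates 1 and 2.

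Ctgf, the matricellular protein also named CCN2, was at 25.5, 30.1 and 25.9 FPKM in WT and 25.2, 15.1 and 18.1 FPKM in KO hearts. KO replicate 1 lay just below the lowest WT heart, and the other KO hearts were well under it. Its log2 fold change was -0.51 ± 0.18 (SE, limma adjusted p = 0.186). Of its exonic bases 23.2% overlap Gm15270 on the opposite strand, the largest overlap among the 10 genes, although Gm15270 was only at 0.203 to 0.515 FPKM. The other CCN genes tested did not follow Ctgf in value: Cyr61 was at 20.6 ± 4.04 FPKM in WT and 20.5 ± 1.72 FPKM in KO hearts, Wisp2 at 5.26 ± 0.159 and 5.43 ± 2.30, and Nov at 1.52 ± 0.104 and 1.54 ± 0.541 (SD, n = 3 each). Of the 4 CCN genes tested 0 reached an unadjusted limma p under 0.05, against 20.9% of all genes.

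Over all genes tested, 83 passed the call (0.460%), 57 higher (0.316%) and 26 lower (0.144%) in KO hearts, and 0 of the 10 genes were among them. At an adjusted p under 0.05 of any size there were 105 genes (0.582%), and again 0 of the 10. Without WT replicate 3 there were 504 genes called higher and 222 lower of 17966 tested, and Bmp6 was the 1 called of the 10. At an unadjusted limma p under 0.05 there were 6 of the 10, Bmp2 and Bmp6 higher and Tgfb2, Tgfbr1, Bmpr2 and Ctgf lower, against 20.9% of all genes tested (12.0% higher, 8.83% lower). The same 6 were those without overlap, against 26.4% of all genes (14.1% with KO above, 12.4% with KO below). Without WT replicate 3 the count was 5 of 10, against 28.2% of all genes. It was 2 of 10 (Bmp4 and Bmp6, both higher), against 11.3% of all genes, when the GC percentage of the reads of each library was a covariate. Neither the GC percentage nor the mitochondrial share overlapped between the genotypes. A fit with either as a covariate therefore cannot fully separate it from genotype. The median log2 fold change was -0.02 for the 10 genes and -0.01 for all genes.

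**Figure D3:**
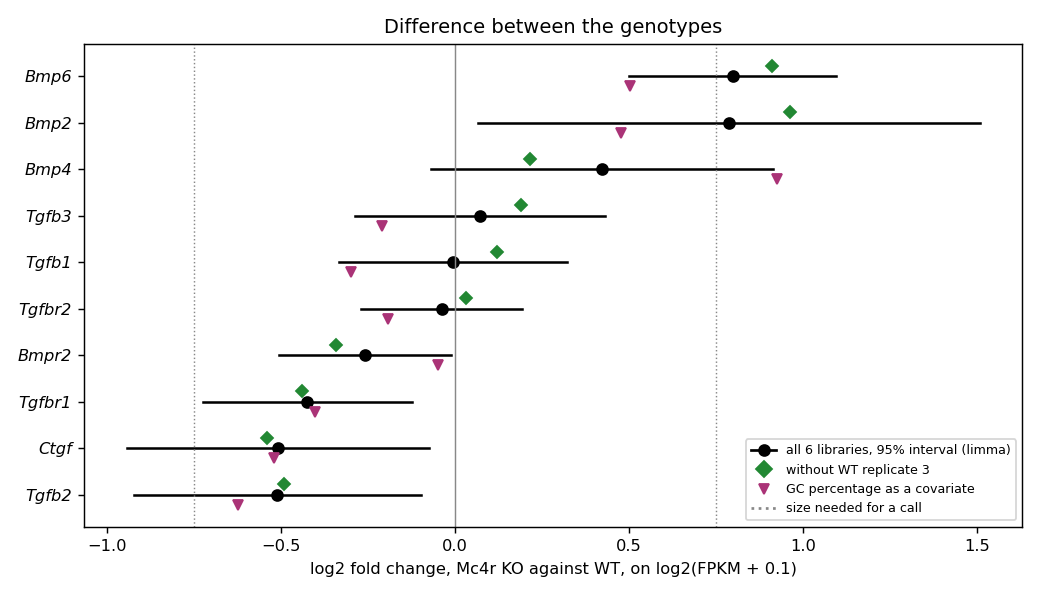
Log2 fold change, Mc4r KO against WT on log2(FPKM + 0.1), with its 95% interval from limma (black), the value without WT replicate 3 (green) and with the GC percentage of the reads as a covariate (purple); dotted lines mark the size needed for a call, 0.75. Bmp6 is at 0.80 with all libraries, 0.91 without WT replicate 3 and 0.50 with the covariate, and Tgfb1, Tgfb3 and Tgfbr2 lie near 0.

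The fibroblast marker sum (Col1a1, Pdgfra, Dcn, Lum, Tcf21) was 170.9 to 177.7 FPKM in WT and 123.6 to 142.5 FPKM in KO hearts, and the cardiomyocyte sum was 4927 to 5408 and 5472 to 6038 FPKM, both without overlap. The single markers did not all follow their sums. Dcn made up most of the fibroblast sum, and Dcn, Lum and Pdgfra were lower without overlap. Col1a1 went the other way in its mean, at 15.4 FPKM in WT and 20.2 FPKM in KO hearts, and overlapped, as did Tcf21. Of the cardiomyocyte markers only Ryr2 did not overlap, and Tnni3 had means of 1675 and 1669 FPKM. In bulk tissue fewer cells of a type and less RNA per cell cannot be told apart. The platelet sum, of a cell rich in Tgfb1, was 16.3 to 30.4 FPKM in WT and 12.9 to 19.7 FPKM in KO hearts. Endothelial markers summed to 145.9 to 180.5 and 159.8 to 186.1 FPKM, macrophage and leukocyte markers to 27.0 to 37.3 and 26.9 to 33.3 FPKM, and smooth muscle and pericyte markers to 213.2 to 282.7 and 186.1 to 276.2 FPKM, all overlapping. Erythrocyte markers ranged from 859.4 to 6344 FPKM in WT and from 620.3 to 1651 FPKM in KO hearts. Adipocyte markers stayed under 1 FPKM in sum, at 0.466 to 0.876 FPKM in WT and 0.0283 to 0.223 FPKM in KO hearts, without overlap. Lep was at 0, and Cfd, the only 1 of them tested, had no more than 11 reads in any library. The part of these markers, of the mitochondrial share and of the GC percentage in the differences of the 10 genes was not tested beyond the covariates given.

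The wider pathway was described through 108 other genes in 8 lists, of which 94 were tested. Of the 94, 0 passed the call, 10 were higher and 12 lower at an unadjusted limma p under 0.05 (23.4%, against 20.9% of all genes), and the median log2 fold change was -0.02.

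Of the 23 other ligands 15 were tested, and 0 reached an unadjusted p under 0.05, against 20.9% of all genes. Bmp10, an atrial BMP, was at 50.4 FPKM in WT replicate 3, at 0.05 and 0.02 FPKM in the other WT hearts and at 0.22, 0 and 0.01 FPKM in the KO hearts. Its log2 fold change of -2.63 ± 2.19 (SE, limma adjusted p = 0.537) rests on that library, and without it the mean was 0.0584 FPKM, under the minimum for testing. Inha, the inhibin alpha subunit, was at 3.02 ± 0.292 FPKM in WT and 3.32 ± 0.980 FPKM in KO hearts (SD, n = 3 each).

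Of the 12 other receptors 9 were tested, and 3 were lower at an unadjusted p under 0.05 while 0 were higher. That is 33.3% of those tested, against 20.9% of all genes (12.0% higher, 8.83% lower). The BMP type I receptor Acvr1 was at 3.70, 4.14 and 4.27 FPKM in WT and 3.15, 3.20 and 3.01 FPKM in KO hearts. Tgfbr3, the betaglycan co-receptor that presents Tgfb2, was at 12.6 ± 0.762 and 10.2 ± 0.936 FPKM, and Bmpr1a, the other main BMP type I receptor, at 15.9 ± 0.933 and 13.4 ± 1.31 FPKM (SD, n = 3 each). Their limma adjusted p were 0.131, 0.149 and 0.235. Endoglin (Eng), the endothelial co-receptor, overlapped at 56.1 ± 5.45 FPKM in WT and 68.1 ± 8.22 FPKM in KO hearts. The median of the 9 receptors was -0.24 on the log2 scale.

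All 14 Smads and Smad regulators were tested, with 2 higher and 2 lower at an unadjusted p under 0.05 (28.6%, against 20.9% of all genes). Of the 14, 4 were without overlap, against 26.4% of all genes. Smad1 and Smad5, the Smads that carry the BMP signal, were at 3.46 ± 0.254 and 8.03 ± 0.302 FPKM in WT and at 2.48 ± 0.357 and 6.76 ± 0.0684 FPKM in KO hearts, without overlap (limma adjusted p = 0.128 and 0.163). Smad6, an inhibitory Smad, was at 3.32, 4.21 and 5.68 FPKM in WT and 7.36, 6.67 and 6.40 FPKM in KO hearts. Its log2 fold change was 0.65 ± 0.19 (SE, limma adjusted p = 0.129), and without WT replicate 3 it was 0.84 and passed the call (limma adjusted p = 0.0199). Pmepa1, a TGF-beta target that retains receptor Smads, was at 5.76 ± 0.687 FPKM in WT and 8.70 ± 0.789 FPKM in KO hearts (limma adjusted p = 0.0766). The remaining 10 had an unadjusted p of 0.05 or more.

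Of the 14 genes of latency and activation 1 was higher and 4 lower at an unadjusted p under 0.05 (35.7%, against 20.9% of all genes). Furin, the protease that cleaves the propeptides of TGF-beta and BMP precursors, was at 7.26, 8.03 and 9.69 FPKM in WT and 14.0, 13.6 and 16.0 FPKM in KO hearts. Its log2 fold change was 0.80 ± 0.13 (SE, limma adjusted p = 0.0535), near that of Bmp6 in size and in p, and without WT replicate 3 it was 0.91 and passed the call (limma adjusted p = 0.00978). The integrin subunits Itgav and Itgb6, which release TGF-beta from its latent complex, were at 3.06 ± 0.216 and 2.53 ± 0.0934 FPKM in WT and 2.38 ± 0.0820 and 1.96 ± 0.285 FPKM in KO hearts. Nrros, which tethers latent TGF-beta on myeloid cells, was at 2.43 ± 0.506 and 1.60 ± 0.214 FPKM (SD, n = 3 each). Their limma adjusted p were 0.147, 0.216 and 0.154. The other lower gene was Ltbp1, a latent TGF-beta binding protein, named after its values were seen, at 7.16 ± 1.13 and 5.71 ± 0.0799 FPKM (limma adjusted p = 0.222).

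Of the 15 secreted inhibitors 13 were tested, with 3 higher and 2 lower at an unadjusted p under 0.05 (38.5%, against 20.9% of all genes). Dcn (decorin), a proteoglycan that binds TGF-beta and also a fibroblast marker above, was at 125.3, 123.6 and 109.0 FPKM in WT and 87.0, 77.1 and 83.0 FPKM in KO hearts, without overlap, with a log2 fold change of -0.53 ± 0.09 (SE, limma adjusted p = 0.0579). Bmper, a BMP-binding protein of endothelium, was at 1.75 ± 0.323 FPKM in WT and 1.07 ± 0.144 FPKM in KO hearts (limma adjusted p = 0.125). Dand5 and Nbl1, secreted antagonists of one family, were at 4.94 ± 0.560 and 5.82 ± 1.72 FPKM in WT and 7.52 ± 0.617 and 8.61 ± 1.82 FPKM in KO hearts (SD, n = 3 each, limma adjusted p = 0.0739 and 0.223). Fstl3, an activin-binding protein named after its values were seen, was at 0.684 ± 0.245 and 1.13 ± 0.188 FPKM (limma adjusted p = 0.203), and passed the call without WT replicate 3 (limma adjusted p = 0.0497).

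All 18 TGF-beta targets were tested, and 5 were higher and 1 lower at an unadjusted p under 0.05, with a median log2 fold change of 0.27. That is 33.3% of the list, against 20.9% of all genes (12.0% higher, 8.83% lower). Lox, which cross-links collagen and elastin, was at 1.11, 0.999 and 1.21 FPKM in WT and 2.21, 2.504 and 1.75 FPKM in KO hearts (log2 fold change 0.89 ± 0.17 SE, limma adjusted p = 0.0688). Eln (elastin) was at 1.90, 2.78 and 4.95 FPKM in WT and 9.26, 8.76 and 6.25 FPKM in KO hearts (log2 fold change 1.39 ± 0.33 SE, limma adjusted p = 0.0966). Both groups of values were without overlap. Timp1, an inhibitor of matrix proteases, overlapped, at 0.479, 0.706 and 2.18 FPKM in WT and 3.99, 2.08 and 3.86 FPKM in KO hearts (limma adjusted p = 0.136). WT replicate 3 was the highest WT heart for all 3 genes, and without it all 3 passed the call, with log2 fold changes of 0.96, 1.75 and 2.26 (limma adjusted p = 0.0318, 0.0136 and 0.0164). Lox, Eln and Timp1 are among the genes that the study itself singled out from these hearts, so that their direction is not independent evidence. Tgfbi, a secreted matrix protein named after its values were seen, was at 8.26 ± 0.796 FPKM in WT and 6.15 ± 1.31 FPKM in KO hearts (SD, n = 3 each, limma adjusted p = 0.210).

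All 15 BMP targets were tested, and Smad6 alone had an unadjusted p under 0.05 (6.67%, against 20.9% of all genes). Id1, the most direct of them and named after its values were seen, was at 45.3 ± 5.27 FPKM in WT and 45.4 ± 7.48 FPKM in KO hearts. Id2, Bambi and Msx1, the next in the order of p among those with a mean of at least 1 FPKM, overlapped between the groups, at 3.52 ± 0.453, 1.92 ± 0.451 and 0.975 ± 0.248 FPKM in WT and 2.61 ± 0.818, 3.02 ± 1.15 and 1.29 ± 0.156 FPKM in KO hearts (SD, n = 3 each). Hamp, which encodes hepcidin, was singled out after its values were seen, at 24.6 FPKM (172 reads) in WT replicate 3 and at no more than 3 reads in any other library.

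**Figure D4:**
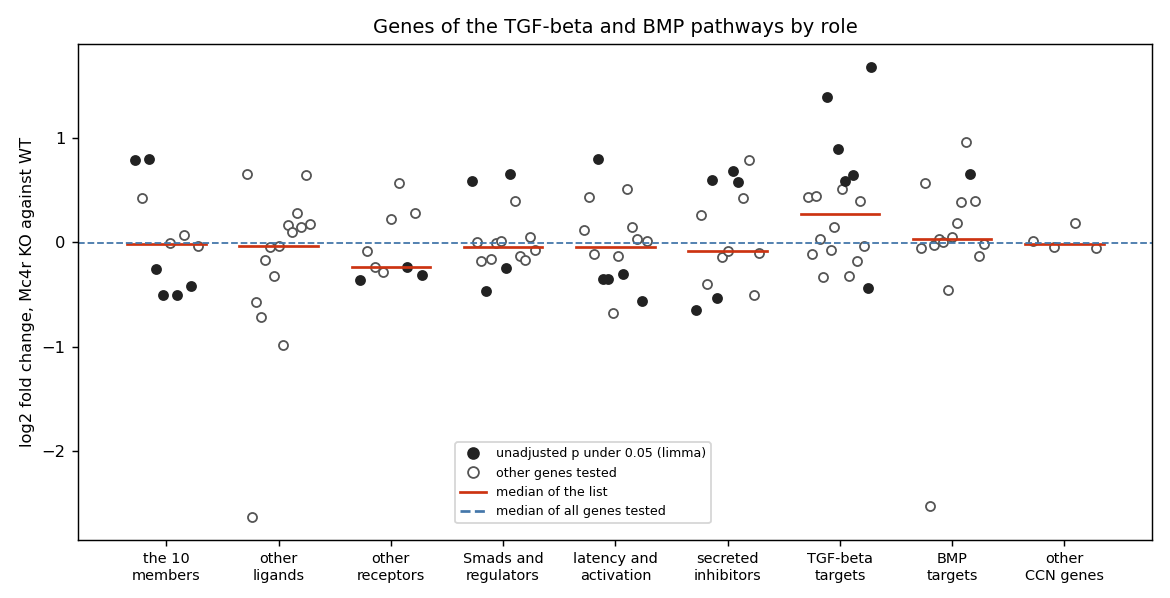
Log2 fold change, Mc4r KO against WT, of each gene tested among the 10 genes (labelled members) and in 8 lists of pathway genes, filled where the unadjusted limma p was under 0.05; red bars are list medians and the dashed line the median of all 18035 genes tested. The receptor list has its median at -0.24 and the TGF-beta target list at 0.27, and the 2 lowest points are Bmp10 and Hamp.

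**Figure D5:**
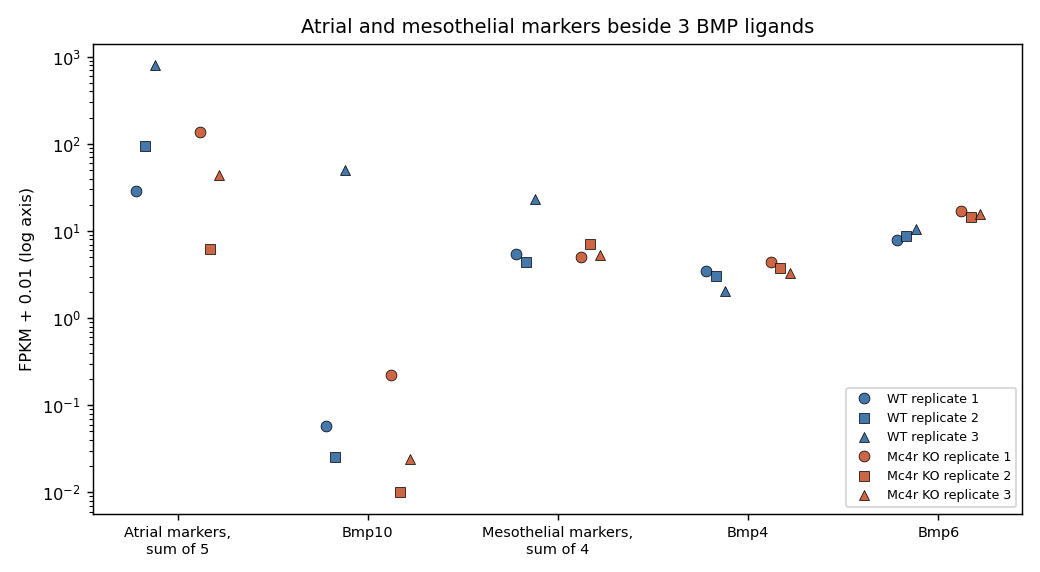
FPKM + 0.01 on a log axis in each library for the sum of 5 atrial markers, Bmp10 (1 of those 5), the sum of 4 mesothelial markers, Bmp4 and Bmp6. WT replicate 3 has an atrial sum of 797.5 FPKM and Bmp10 at 50.4 FPKM, with Bmp4 the lowest and Bmp6 the highest of the WT libraries.

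The profile of Bmp6 over the 6 libraries was compared with that of 11296 other genes with a mean of at least 1 FPKM, after centring each gene on the log2 scale. The 5 closest, by the root mean square difference, were Gm19461 (0.0525), Tmed1, a protein of vesicle transport (0.0666), D330023K18Rik (0.0693), Sema3g, a semaphorin of arterial endothelium (0.0875), and Furin (0.0881). Tmed1 was at 14.6 FPKM in WT and 25.5 FPKM in KO hearts and Sema3g at 6.72 and 11.4 FPKM. The profile matched includes the difference of Bmp6 between the genotypes, so the higher KO levels of these genes follow from the choice. The 6 points share their libraries, and such likeness among many genes is a description.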

How the data were processed

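Poly(A) RNA of 6 hearts, 3 WT and 3 Mc4r KO, was sequenced (NEBNext Ultra kit), with 1 library a mouse. Per the labels and the study's methods, the authors processed raw data with CASAVA, aligned reads with HISAT2 version 2.0.5 to mm10, counted them with featureCounts and deposited FPKM values per gene. The use of strand in counting is not given in the sources used here, so that reads of opposite-strand neighbours cannot be told apart. Multiplying the deposited FPKM by gene length gave whole reads for 100% of values (tolerance 0.05), from which the depth of 14691076 to 16047003 reads a library was taken. The deposited lengths and coordinates of all 10 genes equal GENCODE M21, which was used for overlaps. Upstream sequences came from RefSeq (GRCm38.p6).

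Genes with a mean of at least 0.1 FPKM were tested with limma 3.58.1 in R 4.3.3 on log2(FPKM + 0.1) with the empirical Bayes trend, after median-of-ratios scaling, whose factors were 1 in all libraries. The deposited values were thus already on that scale, and the alternative with FPKM as deposited, 1 of the 22, repeated the main fit. Another of the 22 called genes at a fold change above 1.5 and left every adjusted p as in the main fit. Neither could therefore change the call of Bmp6. Fold changes on this scale understate those of low genes. Adjusted p are Benjamini-Hochberg values over all 18035 genes. The study itself tested its own counts, and here the reads recovered from FPKM served for depth, counting error and an alternative test. Shares and ratios were compared with exact permutation tests (scipy 1.17.1). On simulated data of this comparison, with 17942 genes tested, limma recovered 31% of 100 genes changed 2-fold and 99% of 100 changed 4-fold, with 16 false calls. Limma voom on the recovered reads recovered 80% and 98%, with 5. The changed genes were drawn from those with a mean of at least 1 FPKM, so the recovery does not cover lower genes such as Bmp2. All genes were given the same dispersion, 0.03, and no differences in tissue makeup, GC percentage or mitochondrial share were simulated. The false calls therefore do not cover such differences.

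The 10 genes and all lists were chosen with earlier results of these data known. The rule for named genes took all 10 and, of each list, the genes called and up to 4 with the smallest p among those with a mean of at least 1 FPKM, and exceptions are marked in the text. The values of 1 gene of the TGF-beta target list are not reported here. Animals are the replicates. Intervals of counting cover counting error only. Alternatives varied the pseudocount, filter, scaling, variance model, covariates and libraries.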

Additional observations from a re-analysis of the deposited data

How the results depend on the processing

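With all 6 libraries the numbers of the 10 genes, of pathway list genes, and of all genes called higher and lower were 0, 0, 57 and 26. Bmp6 was the gene of the 10 called, and called higher, wherever the count was 1: with a mean of at least 1 FPKM (limma adjusted p = 0.0372; 1 list gene, 107 and 40 genes), with robust empirical Bayes (0.0487; 1 list gene), with array weights (0.0220; 4 list genes, 303 and 132 genes), with limma voom on the recovered reads (0.00980; 3 list genes, 193 and 124 genes) and with protein-coding genes only (0.0272; 2 list genes, 134 and 70 genes). None of the 10 was called at a pseudocount of 1 (31 and 13 genes) or 0.01, without a filter (14 and 8), after quantile normalization (30 higher), after scaling outside the mitochondrial chromosome (16 higher, with the median of all genes at -0.19), without the trend (11 and 10), or with GC percentage (1 and 0) or mitochondrial share (2 and 0) as a covariate. Bmp6 then had a log2 fold change of 0.50 (limma adjusted p = 0.243) with GC percentage and 0.47 (0.297) with mitochondrial share. Both covariates differed between the genotypes without overlap, so these fits cannot fully separate them from genotype. Leaving out 1 library gave 4 to 504 genes higher and 2 to 222 lower, 0 or 1 of the 10 called and 0 to 6 list genes. The upper ends came without WT replicate 3, when 504 of 17966 genes tested were called higher and 222 lower. Bmp6 was then called, and the list genes were Furin, Eln, Smad6, Timp1, Lox and Fstl3. Calls thus rose over all genes and not only in the lists. WT replicate 3 was the WT library nearest the KO libraries in mitochondrial share and GC percentage. Over all alternatives the adjusted p of Bmp6 ran from 0.00978 to 0.297. Furin was called under the same 6 settings as Bmp6. The cause of these differences was not tested.

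The directions of Tgfb2, Tgfbr1, Bmp2, Bmp4, Bmp6, Bmpr2 and Ctgf held under every alternative that gave them a value (Bmp2 was not tested at a mean of at least 1 FPKM), but sizes moved with the covariates. Bmpr2 went from -0.26 to -0.05 with GC percentage and -0.03 with mitochondrial share (limma adjusted p = 0.908 and 0.954), Bmp4 from 0.42 to 0.92 and 0.96 (0.219 and 0.263), and Bmp2 from 0.79 to 0.48 and 0.46 (0.760 and 0.800). Tgfb3 changed sign after scaling outside the mitochondrial chromosome (-0.12, with the shift of all genes given above), with GC percentage (-0.21), with mitochondrial share (-0.23), without WT replicate 1 (-0.0544) and without KO replicate 1 (-0.0072). Tgfb1 changed sign with array weights (0.0473), without WT replicate 3 (0.12) and without KO replicate 3 (0.06), and Tgfbr2 with array weights (0.0107) and without WT replicate 3 (0.0310). With 1 library left out, Tgfb1 ran from -0.100 to 0.121, Tgfb3 from -0.0544 to 0.190 and Tgfbr2 from -0.102 to 0.0310. The Tgfb1 share, KO minus WT, ran from -0.194 to 2.08 percentage points when 1 library was left out. The number of the 10 genes with an unadjusted p under 0.05, an alternative chosen after seeing the data, was between 2 and 6. The share of all genes tested ran from 10.8% to 28.2% over the same settings. In the settings with 2 of the 10 it was between 10.8% and 15.9%. Replicate numbers did not pair the libraries: the correlation of same-numbered deviations over 11297 genes was -0.141, 0.00735 and -0.0818. With the replicate number as a block 8 genes were higher and 3 lower, 0 of the 10 were called, and Bmp6 had a limma adjusted p of 0.128. At 9 to 36 reads, depth limits Bmp2 most.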
